A study of Sus scrofa with 20 samples.

Results

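Keratins are the structural proteins of the intermediate filaments of epithelial cells. The report describes 5 of them, KRT8, KRT18, KRT19, KRT78 and KRT82, in the testis and liver of boars. KRT8, KRT18 and KRT78 were chosen because the study listed them as differing between high and low androstenone livers, and KRT82 because it was listed for testis. KRT19 was added by its symbol. They are 5 of the 21755 reference IDs counted and 5 of 22 IDs that carried a keratin symbol. Since their high against low difference chose KRT8, KRT18 and KRT78 in liver and KRT82 in testis, these contrasts are described without a test.

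The 20 samples fall into 4 groups of 5, which are testis low, testis high, liver low and liver high androstenone. The animals were crosses of Duroc with an F2 line derived from Leicoma, German Landrace and Large White, 116 days old at sampling, and the labels name no treatment. They were grouped by the androstenone in their fat, a testicular steroid that causes boar taint. By the study's methods the testes and livers came from the same boars, 5 per group, but the labels do not say which testis and liver belong together. The tissue tests therefore treat the 10 testes and 10 livers as unpaired, and their p-values do not take the shared animals into account. Each sample is 1 library of whole tissue RNA.

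A keratin filament is built from equal parts of a type I and a type II keratin, and a keratin without a partner is normally degraded. KRT8 (type II) and KRT18 (type I) form the pair of simple epithelia and are the keratins of adult hepatocytes. KRT19, a type I keratin without a tail domain, marks bile duct and other ductal cells. KRT82 is a type II keratin of the hair cuticle, and KRT78 is a type II keratin whose gene lies beside KRT8. In adult testis, Sertoli and interstitial cells use mainly vimentin filaments. In the RefSeq gene order (Sscrofa11.1), KRT79, KRT78, KRT8 and KRT18 follow each other, KRT19 is next to KRT15 and KRT82 is next to KRT84.

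The testis libraries held 6161397 to 15975386 counts and the liver libraries 5796973 to 26783002. The floor was taken as 3 counts, which is 0.188 to 0.487 counts per 1000000 (CPM) for the testes and 0.112 to 0.518 CPM for the livers. Intervals and floors cover counting error only. Levels are CPM scaled by TMM, a normalization for composition, within each tissue. The tissue labels were checked by marker genes. The 7 matched hepatocyte markers summed to between 88141 and 230256 CPM in the livers and between 53.3 and 170 CPM in the testes. Markers of germ cells (4 matched) summed to at least 1231 CPM in the testes and at most 160 CPM in the livers. Other testis lists separated the tissues less. Sertoli cell markers overlapped, with sums from 5692 CPM in the testes and up to 16108 CPM in the livers, mostly of CLU. Leydig cell markers summed to at least 1586 CPM in the testes and at most 1583 CPM in the livers. The liver sums were mostly CYB5A, at 438 to 1582 CPM, which overlapped between the tissues, as did HSD3B1. INSL3 was at least 820 CPM in the testes and at most 2.71 CPM in the livers. CYP17A1 was at least 129 CPM in the testes and at most 0.35 CPM in the livers, and LHCGR was also higher in every testis. In whole tissue, fewer cells of a type and less RNA per cell cannot be told apart. How reads that fit several related keratins were counted is not stated, so levels of close paralogs are uncertain, and levels of different keratins are not compared because transcript lengths were not used here.

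KRT8, KRT18, KRT19 and KRT78 were higher in liver and KRT82 was read in testis only. KRT8 and KRT18 separated the tissues completely, every liver being above every testis. KRT19 differed least and overlapped, and KRT78 and KRT82 rested on few samples. The tissue contrast itself was not used to choose the genes, but the liver and testis lists favoured genes that are read in those tissues. KRT78 and KRT82 had few or no reads in the tissue whose list did not name them. Their tissue tests are therefore not independent of the choice and are given as a description.

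KRT8 (NM_001159615.1) stood at 252.9, 122.9, 509, 485 and 748 CPM in the 5 liver low samples and at 855, 388, 5995, 116.9 and 1054 CPM in the 5 liver high samples. In testis low it was 11.9, 13.4, 15.3, 33.5 and 52.8 CPM, and in testis high 14.4, 35.0, 56.6, 46.6 and 19.5 CPM. The lowest liver was thus above the highest testis, and the livers were spread over a 51.3-fold range against 4.76-fold in the testes. The order of the group means was testis low (25.4 ± 17.7, SD, n = 5), testis high (34.4 ± 17.8), liver low (423 ± 243) and liver high (1682 ± 2440). The 2 testis groups overlapped, and so did the 2 liver groups. Testis against liver gave a log2 fold change of -5.82 (SE 0.60, adjusted p = 2.71e-09, edgeR quasi-likelihood test with Benjamini-Hochberg adjustment). It was -5.06 without liver high replicate 3, -5.05 in the low androstenone samples alone and -6.57 in the high androstenone samples alone.

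KRT18 (XM_003126180.1), the partner of KRT8, had the largest tissue difference of the 5. It was read at 214, 94.6, 120, 154 and 82.8 CPM in liver low and at 554, 98.8, 513, 171 and 832 CPM in liver high. In testis low it was 0.70, 1.49, 0.56, 1.02 and 0.62 CPM, and in testis high 1.19, 0.89, 0.93, 1.18 and 0.40 CPM. The testis values come from 3 to 16 reads a library, so KRT18 was present in every testis but close to the floor. The group means were 0.878 ± 0.388 and 0.918 ± 0.320 CPM in testis low and high and 133 ± 53.0 and 434 ± 300 CPM in liver low and high (SD, n = 5 each). The log2 fold change of testis over liver was -9.04 (SE 0.43, adjusted p = 4.80e-16, edgeR), with -8.31 among low and -9.81 among high androstenone samples. Pooled over all reads, KRT18 was 318-fold higher per total count in liver (95% exact interval 259 to 395), whereas KRT8 was 46.2-fold higher (44.6 to 47.9). The KRT8 value fell to 16.7-fold without liver high replicate 3, so the counting interval is far narrower than the spread between livers.

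KRT19 (XM_003131437.1) was read at a low level in both tissues. In liver low it was 7.58, 3.34, 7.33, 13.7 and 4.71 CPM, and in liver high 11.9, 2.59, 7.04, 5.99 and 9.86 CPM. In testis low it was 0.98, 4.18, 3.27, 9.61 and 5.29 CPM, and in testis high 6.10, 2.55, 1.60, 0.50 and 3.62 CPM. The tissues overlapped in most of their range. The log2 fold change was -1.95 (SE 0.37, adjusted p = 3.38e-05, edgeR), and a permutation test of 10 testes against 10 livers gave p = 0.0154. As CPM within tissues, the means were 3.77 in testis and 7.40 in liver.

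KRT78 (XM_001927194.2) was all but absent from testis, where 5 reads were counted over the 10 samples and 6 samples had 0. In liver low it had 3, 0, 8, 3 and 26 reads, or 0.21, 0, 0.86, 0.41 and 2.07 CPM. In liver high it had 1, 12, 266, 0 and 1 reads, or 0.07, 1.83, 13.4, 0 and 0.14 CPM. A single liver therefore held most of the reads, and the tissues were not fully separated. The log2 fold change of testis over liver was -5.63 (SE 1.02, adjusted p = 2.12e-05, edgeR) and -4.18 without liver high replicate 3. It was -4.32 among low and -6.89 among high androstenone samples. Pooled per total count, the ratio of liver to testis was 54.7 (95% exact interval 23.2 to 170), and 11.8 without liver high replicate 3.

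KRT82 (XM_003126157.1) was read in none of the 10 livers, which allows a pooled level of up to 0.0244 CPM. Testis low had 1, 1, 81, 34 and 2 reads, or 0.14, 0.15, 5.00, 2.68 and 0.18 CPM, and testis high had 0, 3, 1, 0 and 0 reads. Only testis low replicates 3 and 4 stood clearly above the floor, and the 8 other testes had at most 3 reads. Pooled over the 10 testes, KRT82 was at least 48.0-fold higher than the limit in liver, taking 3 counts over the 10 livers as the floor, and at least 19.3-fold higher without testis low replicate 3. The tissue difference passed edgeR's test (adjusted p = 0.0146) and missed it without testis high replicate 2 (adjusted p = 0.0973).

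All 5 members passed the tissue test (adjusted p under 0.05, change of 1.5-fold or more), with 4 higher in liver and 1 higher in testis. For KRT78 and KRT82 the direction followed the list they were chosen from, so nothing is concluded from their tests. Among the 19065 IDs tested, 32.2% were called higher in liver and 43.5% higher in testis, so that a call in either direction was common. Complete separation with higher values in liver, as for KRT8 and KRT18, was seen in 8.05% of all IDs on CPM scaled within each tissue and in 15.3% on TMM over both tissues, the scaling of the test. KRT8 and KRT18 were separate on both. Permutation tests of 10 against 10 samples on log2(CPM + 0.5), with 100000 resamples and scaling within each tissue, gave p = 2e-05 for both, the smallest value they can give. For KRT78 the permutation p was 0.0053 and for KRT82 it was 0.00346. The TMM factors fitted over both tissues moved the median of all IDs by 0.97 on the log2 scale relative to total counts. With total counts alone the log2 fold changes were -4.73 for KRT8, -8.12 for KRT18, -1.05 for KRT19 and -4.55 for KRT78, each still called.

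**Figure D1:**
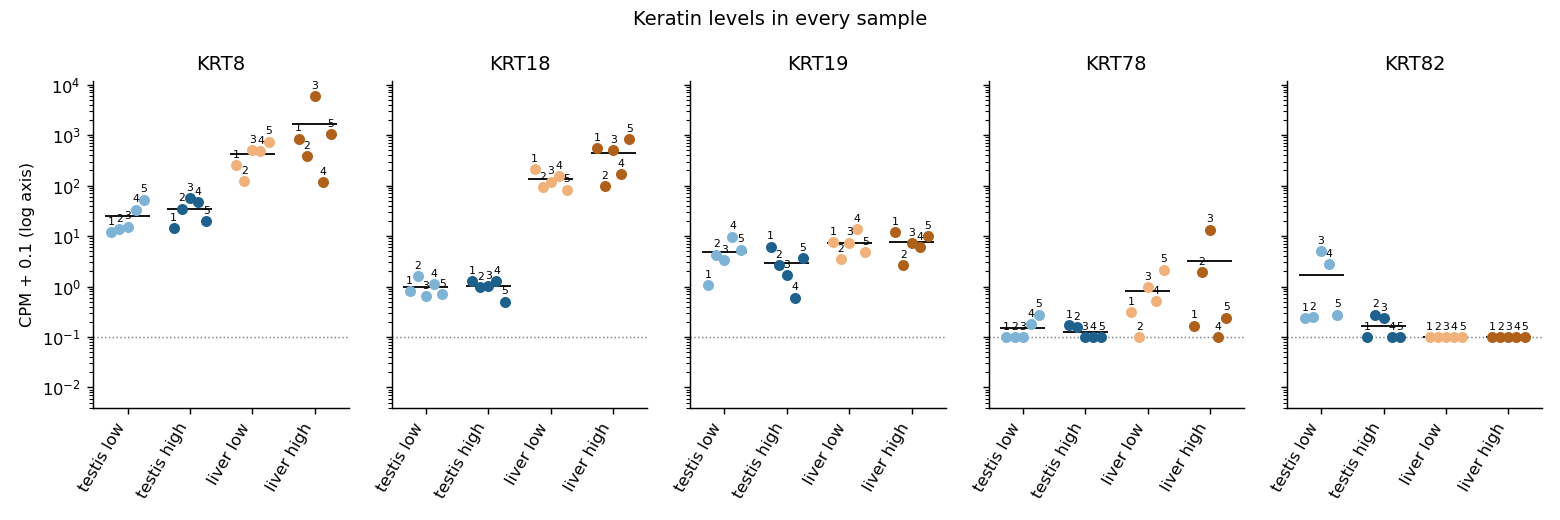
Level of each keratin (CPM + 0.1, log axis) in every sample of the 4 groups, with the replicate number above each point, group means as bars and 0 as the dotted line. KRT8 and KRT18 lie higher in all 10 livers than in any testis, KRT19 overlaps, liver high replicate 3 leads KRT8 and KRT78, and KRT82 stands out in testis low replicates 3 and 4.

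The pair of KRT8 and KRT18 was not read in the same proportion in the tissues. KRT18 made up 5.56%, 10%, 3.52%, 2.97% and 1.16% of the reads of the pair in testis low and 7.66%, 2.48%, 1.62%, 2.46% and 2.01% in testis high. In liver it was 45.9%, 43.5%, 19.0%, 24.1% and 9.97% in the low group and 39.3%, 20.3%, 7.88%, 59.3% and 44.1% in the high group. The counting error is small beside this spread in liver (for liver high replicate 4, 95% exact interval 57.0% to 61.7%) and wide in testis (for testis low replicate 2, 4.90% to 17.6%). On the log2 scale, the ratio of KRT8 to KRT18 reads was 4.92 ± 1.03 in testis and 1.35 ± 1.35 in liver (SD, n = 10). The difference of 3.57 gave p = 6.0e-05 in a two-sided permutation test with 100000 resamples and stayed between 3.36 and 3.82 when any 1 sample was left out. The ratio was added after the data were seen, and both genes were chosen on liver values, so the p-value is given as a description. In 9 of the 10 testes the ratio was above that of every liver. Since a ratio of 2 genes within a library needs no scaling factor, this difference does not depend on TMM. KRT8 and KRT18 differ in length, so the ratio is compared between samples and says nothing of the molar balance.

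Between androstenone groups the ratio of KRT8 to KRT18 differed by less than its spread. In testis, high minus low was 0.45 on the log2 scale (exact permutation test, two-sided, p = 0.508). In liver it was -0.32, given without a test because both genes were chosen there.

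The livers differed among themselves in this ratio more than the androstenone groups did. Liver high replicate 3 and liver low replicate 5 had 11.7 and 9.03 KRT8 reads per KRT18 read, and liver low replicate 3, liver high replicate 2 and liver low replicate 4 had 4.26, 3.93 and 3.14. In the other 5 livers the ratio lay between 0.685 and 1.54. The 5 livers with at least 3 KRT8 reads per KRT18 read were also those with most KRT78, at 0.41 to 13.4 CPM against 0 to 0.21 CPM in the other 5. At the border, liver low replicates 4 and 1 had 3 KRT78 reads each, so that they were set apart by depth alone. The 5 livers with the higher ratio belong to both groups, 3 low and 2 high. Spearman's rho of the ratio and the KRT78 level was 0.86 over the 10 livers, and Pearson's r on log2 values was 0.90, or 0.91 without liver high replicate 3. KRT78 itself followed KRT8 less closely (rho 0.53), and its rho with KRT18 was -0.21. These coefficients describe 10 libraries of values on which the genes were chosen, and the threshold of 3 was set after the values were seen. KRT78 amounted to between 8.47 and 47.1 reads per 10000 KRT8 reads in those 5 livers and to at most 8.25 in the others, so it did not stand in a fixed proportion to KRT8.

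The total counts of the 5 livers with the higher ratio, 6187831 to 26783002, covered nearly the same range as those of the other 5, 5796973 to 20765353. By the read numbers in the study's summary, however, the same livers also had the larger shares of reads that aligned to the reference. For liver high replicate 3 this follows from its read numbers, whereas the aligned and unaligned percentages printed beside them are exchanged. Liver low replicate 4 had the smallest aligned share of these 5. It was only slightly above liver low replicate 1, the largest of the other 5, so the border was a near tie. The part of the aligned share in this ratio was not tested.

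**Figure D2:**
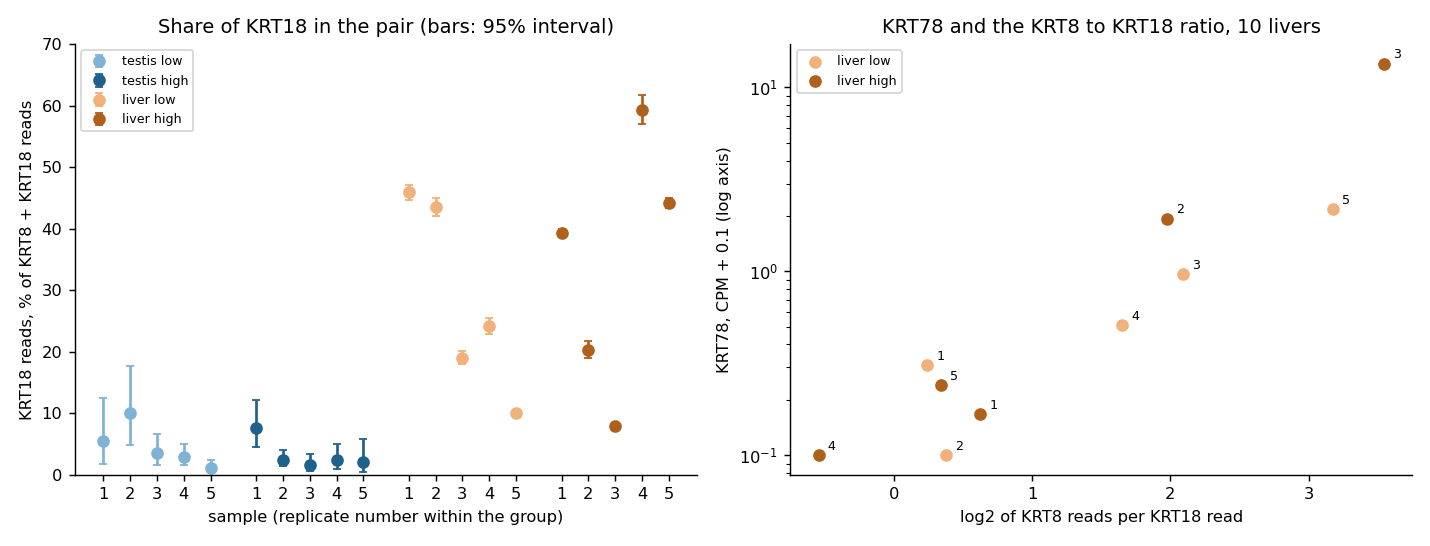
Left, KRT18 reads as a percentage of KRT8 plus KRT18 reads in each sample with 95% exact intervals; right, KRT78 level (CPM + 0.1, log axis) against the log2 ratio of KRT8 to KRT18 reads in the 10 livers, numbered by replicate. The testes lie at or below 10% and the livers between 7.88% and 59.3%, and KRT78 is highest in liver high replicate 3, where the ratio is also highest.

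The high against low contrast in liver, which chose KRT8, KRT18 and KRT78, was carried by part of the high group. For KRT8, 3 of 5 liver high samples (replicates 1, 3 and 5) were above every liver low sample, and liver high replicate 4 was below every liver low sample. For KRT18 the same 3 liver high samples were above every liver low sample, while replicates 2 and 4 lay inside the low range. Replicate 3 held 71.3% of the summed KRT8 level of its group, with 5995 CPM, and without it the group mean was 603 ± 428 CPM (SD, n = 4). The log2 fold changes were 1.99 for KRT8, 1.704 for KRT18 and 2.23 for KRT78. Leaving out 1 sample at a time gave 0.51 to 2.30 for KRT8, 1.33 to 1.96 for KRT18 and -0.56 to 3.31 for KRT78, with the lowest values of KRT8 and KRT78 both without liver high replicate 3. Of these 3 keratins, KRT18 depended least on any 1 liver.

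The KRT78 median was lower in liver high (0.14 CPM) than in liver low (0.41 CPM). Liver high replicates 1, 4 and 5 had 0 or 1 read and replicate 3 had 266. Liver high replicates 1 and 5 thus combined high KRT8 and KRT18 with 1 KRT78 read each. Replicate 4 had the lowest KRT8 of all livers and no KRT78 read.

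Markers of other cells were set beside these livers. The 7 matched of 12 bile duct markers, KRT19 among them, summed to between 31.6 and 185 CPM in liver low and between 51.7 and 346 CPM in liver high, with the highest sum in liver high replicate 3. CLDN4, a tight junction protein of ductal and other epithelia, made up most of that sum, at 319 CPM. KRT19 itself was 7.04 CPM in that sample, in the middle of the livers, and the duct marker SPP1 stayed between 1.19 and 3.52 CPM in all livers. ANXA4, an annexin on the same list, was highest in that sample, at 14.1 CPM against 3.08 to 10.5 CPM in the other livers. EPCAM, also on that list, was lowest of all livers in that sample, at 1.36 CPM, and reached 4.62 CPM in another liver high sample. The 7 hepatocyte markers summed to 210180 CPM in liver high replicate 3 and to 230256 CPM in liver low replicate 5. The part of these cells in the keratin levels was not tested.

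KRT19 was not chosen on the liver contrast. Its means, 7.33 CPM in liver low and 7.48 CPM in liver high, did not differ as those of KRT8 and KRT18 did. High against low gave a log2 fold change of 0.05 (SE 0.42, adjusted p = 0.9999, edgeR) and p = 0.960 in the exact permutation test of 5 against 5, which cannot give less than 0.00794. The highest and the lowest sample were liver low replicate 4, at 13.7 CPM, and liver high replicate 2, at 2.59 CPM. In testis KRT19 gave -0.66 (SE 0.52, adjusted p = 0.701, edgeR; exact permutation p = 0.373). The difference between these 2 contrasts was -0.65 (SE 0.72), with an adjusted p of 0.99999 in edgeR's interaction test. That test called 0 IDs (0.0%), with 4.67% at an unadjusted p under 0.05, so a difference in response was not detectable for KRT19.

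KRT8 and KRT18 were not chosen on the testis contrast either. For KRT8 in testis, high over low was 0.43 (SE 0.43, adjusted p = 0.768, edgeR; exact permutation p = 0.333), and for KRT18 it was 0.12 (SE 0.39, adjusted p = 0.940, edgeR; exact permutation p = 0.841). Both differences were near or below their SE, and the KRT18 value turned to -0.024 without testis low replicate 3. KRT78 had too few reads in testis to be tested.

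KRT82 in testis, chosen on this contrast, had a log2 fold change of -4.35 for high over low, between -5.41 and -3.33 when 1 sample was left out. The difference lay in testis low replicates 3 and 4. The other 3 testis low samples, with 1, 1 and 2 reads, were not separable from testis high, with 0 to 3 reads.

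Between androstenone groups, edgeR called 0 of 18340 IDs in testis and 0 of 15855 in liver (0.0% in each direction). At an unadjusted p under 0.05 there were 9.49% of the IDs in testis and 2.93% in liver. DESeq2 called 52 IDs in testis and 0 in liver. These shares are given as background only, and nothing is read from them for the keratins chosen on these contrasts.

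**Figure D3:**
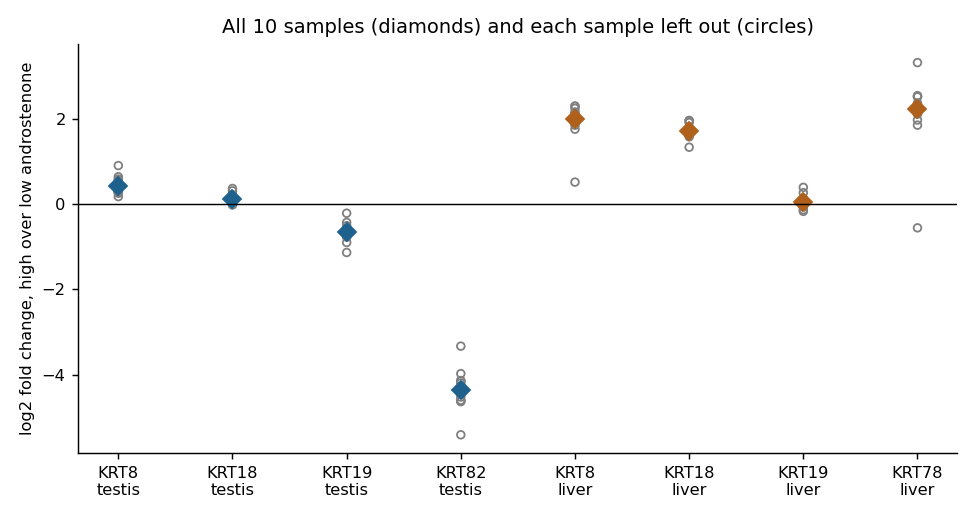
Log2 fold change of high over low androstenone for each keratin in each tissue with all 10 samples (diamonds) and with each sample left out in turn (circles). In liver, KRT8 falls from 1.99 to 0.51 and KRT78 from 2.23 to -0.56 in the fit without liver high replicate 3, while KRT18 stays between 1.33 and 1.96.

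The samples that carried 1 keratin did not carry all of them. In testis, KRT8 was highest in testis high replicate 3, KRT18 in testis low replicate 2, KRT19 in testis low replicate 4, KRT78 (2 reads) in testis low replicate 5 and KRT82 in testis low replicate 3. KRT8 and KRT19 had r = -0.14 and rho = -0.14 over the 10 testes (permutation p = 0.701 and 0.705, the only pair with both medians of at least 1 CPM). The coefficient was -0.29 without the 2 samples farthest from the KRT8 median and -0.04 within groups. In liver, KRT8 and KRT18 shared their top 3 samples, and r was 0.59 (rho 0.47) for this pair, 0.63 (rho 0.67) for KRT18 and KRT19, and 0.34 (rho 0.38) for KRT8 and KRT19, given as a description over 10 libraries. Liver high replicates 1 and 5 were among the top 3 for KRT8, KRT18 and KRT19 alike.

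By likeness of pattern, the genes with the highest r to KRT8 over the 10 livers, among 2795 named IDs with a mean of at least 5 CPM, were EPAS1 (0.96), a hypoxia-inducible transcription factor, CPSF6 (0.94), a factor of mRNA 3' end processing, and TLR2 (0.93), a receptor of innate immunity. All 3 were highest in liver high replicate 3, and without it r was 0.91, 0.86 and 0.83. For KRT18 they were CRELD2 (0.88), an endoplasmic reticulum stress protein, EXOSC2 (0.86), a subunit of the RNA exosome, and APMAP (0.86). For KRT19 in liver they were COLGALT1, NAT9 and KDM2A (0.91 each). None of the lists of KRT8, KRT18 and KRT19 shared a gene. In testis, among 3549 IDs, the nearest to KRT8 were CYP4A11 (0.90), a fatty acid hydroxylase, ACER2 (0.89), an alkaline ceramidase, and TPI1 (0.88), a glycolytic enzyme, and those to KRT19 were NELFA, ADGRA2 and FNBP1L (0.89, 0.89 and 0.88).

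Of the 22 keratin IDs, 17 had enough reads to be tested between tissues. Of these, 7 were called higher in testis and 5 higher in liver, against 43.5% and 32.2% of all IDs. Both counts lay near these shares, but they include the 5 members, most of which were chosen from the study's lists. Without the members, 12 keratins were tested, of which 6 were called higher in testis and 1 higher in liver. Those higher in testis include KRT4, which is also on the study's testis list. The median log2 fold change of the family was 1.503 against 0.31 over all IDs. With total counts alone, 11 keratins were called higher in testis and 4 in liver, against 59.5% and 18.8% of all IDs. KRT23, a type I keratin, was the only non-member called higher in liver, at -1.57 (SE 0.56, adjusted p = 0.0128, edgeR), and lost its call with total counts alone (-0.66, adjusted p = 0.303) and without liver high replicate 1 (-0.90, adjusted p = 0.171). It had at most 14 reads in a library.

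KRT32 (XM_003131433.1), a type I hair keratin and so of the type that could pair with KRT82, was the most tissue-bound of the family. It was read at 64.7, 43.1, 50.03, 40.7 and 75.4 CPM in testis low and at 57.0, 45.2, 33.5, 71.8 and 50.7 CPM in testis high. In liver, 2 reads were counted over the 10 samples. It was thus present in every testis at a similar level, 53.2 ± 13.8 CPM (SD, n = 10), unlike KRT82. Pooled per total count, KRT32 was 3230-fold higher in testis (95% exact interval 894 to 26674, adjusted p = 9.00e-18, edgeR), and 5654-fold or 6105-fold higher without liver low replicate 5 or liver high replicate 2, which held 1 read each.

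KRT34, another type I hair keratin, had 0.399 to 3.86 CPM in the testes and 1 read over all livers. KRT25 and KRT28, type I keratins of the inner root sheath of the hair, were higher in testis by 2.31 (SE 0.37) and 2.58 (SE 0.56) on the log2 scale, with adjusted p = 3.22e-06 and 0.000195 in edgeR. KRT10, the type I keratin of suprabasal epidermis, was read in both tissues, at 39.0 ± 10.3 CPM in testis and 11.9 ± 4.02 CPM in liver (SD, n = 10), with a log2 fold change of 0.71 (SE 0.21, adjusted p = 0.00364, edgeR). KRT10 missed the threshold in the low androstenone samples alone (adjusted p = 0.0611). On CPM scaled within each tissue, KRT32, KRT34, KRT25, KRT28 and KRT10 were higher in every testis than in any liver, as were 40.3% of all IDs. On TMM over both tissues this held for KRT32 and KRT34 and for 27.5% of all IDs, while KRT25, KRT28 and KRT10 overlapped. For KRT28 the closest testis and liver had 2 reads and 1 read, both below the floor, and for KRT34 they had 3 reads and 1 read. KRT5, the type II keratin of basal epithelial cells, had no read in any of the 20 samples.

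KRT4, a type II keratin of the lining of mouth and oesophagus that is also on the study's testis list, was uneven among the testes, as KRT82 was. It was 4.90, 2.69, 7.66, 0.08 and 2.91 CPM in testis low and 3.79, 0, 0.27, 0.50 and 1.74 CPM in testis high, with no read in liver, which makes it at least 109-fold higher in testis on pooled counts and at least 71.6-fold without testis low replicate 3. KRT4 and KRT82 shared their highest sample, testis low replicate 3, but testis low replicate 4, second for KRT82, was ninth of 10 for KRT4. KRT32 ranked sixth and ninth in these 2 testes, so the samples with KRT82 were not those with most KRT32. Testis low replicate 4 was also the highest for KRT19.

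**Figure D4:**
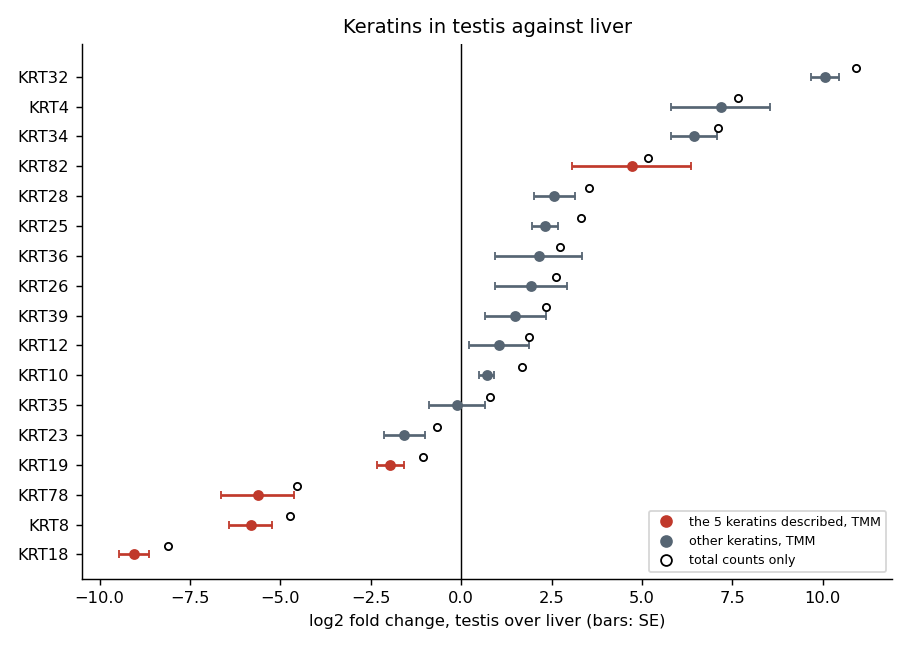
Log2 fold change of testis over liver with its SE for the 17 keratins tested (filled points, TMM over both tissues) and with total counts alone (open points). KRT18, KRT8, KRT78 and KRT19 are the 4 lowest, KRT32 is the highest, and total counts move each value towards testis.

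**Figure D5:**
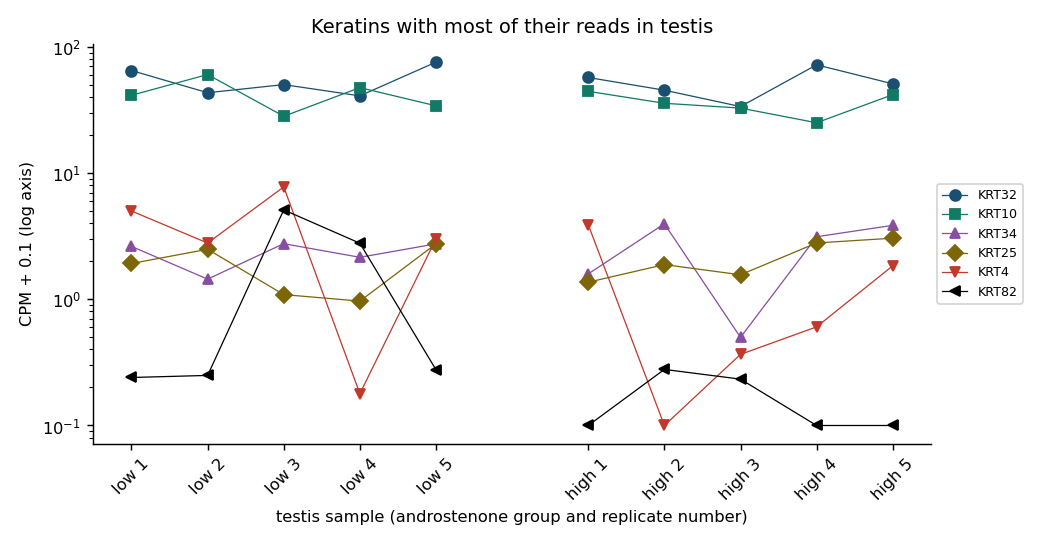
Level (CPM + 0.1, log axis) of the keratins read mainly in testis in each of the 10 testes. KRT32 and KRT10 stay within 24.9 to 75.4 CPM, whereas KRT82 exceeds 1 CPM in testis low replicates 3 and 4 alone and KRT4 varies from 0 to 7.66 CPM.

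Proteins that bind, anchor or modify keratin filaments were examined as a list of 29 genes, of which 15 were matched and tested. VIM (vimentin) and DES (desmin), other filament proteins on the list, were not matched, so the counts leave them out. Between tissues, 13 of the 15 were called higher in liver and 2 higher in testis, against 32.2% and 43.5% of all IDs. The largest differences belonged to CDH1 (E-cadherin, -6.83, SE 0.30), PKP2 (plakophilin, -4.12, SE 0.25), DSP (desmoplakin, which ties keratin to desmosomes, -3.75, SE 0.43) and PPL (periplakin, -3.55, SE 0.45), each with an adjusted p of at most 9.91e-08 in edgeR. HSPB1, a small heat shock protein, was at -2.47 (SE 0.32), and JUP, CASP8, LMNA, SQSTM1, TRIM21, EVPL and CTNNB1 were between -2.63 and -0.60. YWHAZ, a 14-3-3 protein (1.65, SE 0.17), and LMNB1, a nuclear lamin (0.88, SE 0.20), were higher in testis. With total counts alone, 9 were called higher in liver and the same 2 in testis, against 18.8% and 59.5% of all IDs, and CTNNB1 turned to 0.41. The junction proteins CDH1, PKP2 and DSP thus stood with KRT8 and KRT18 on the liver side under both scalings.

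Between androstenone groups, none of the partners was called, 0 of 14 in testis and 0 of 15 in liver by edgeR. DSP in testis was the only one with an unadjusted p under 0.05 (0.0282), at -1.60 (SE 0.66). It is on the study's testis list, drawn from the same samples and contrast, so this is no independent test. Testis low replicate 2, at 46.9 CPM, lay far above the other testes (2.03 to 13.7 CPM). SQSTM1, an autophagy adaptor found with KRT8 and KRT18 in hepatic inclusions, was at 113 to 349 CPM in the livers and highest in liver high replicate 3. Its high over low value in liver was 0.46 (SE 0.33).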

How the data were processed

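RNA of testis and liver of boars was sequenced by the authors with 1 library per sample, as single reads on an Illumina HiSeq. Reads were processed with CASAVA (version 1.7) and aligned with BWA to RefSeq mRNA and UniGene sequences of an earlier pig assembly. The authors deposited raw read counts per reference ID, without normalization. How reads were counted, and multiply aligned reads treated, is not given in the sources used here. Each sample has 21785 lines, and 10 IDs that appear 4 times were used once. Symbols came from the study's tables or RefSeq's gene table and named 6692 IDs. No coordinates or sequences were used.

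Counts were tested with edgeR 4.0.16 in R 4.3.3 (TMM, IDs with at least 10 counts summed, quasi-likelihood test, Benjamini-Hochberg adjustment over all IDs). A call needed a change of 1.5-fold or more at an adjusted p under 0.05. The tissue contrast was fitted to 4 group means of 20 samples, and the androstenone contrasts to the 10 samples of a tissue. SE was taken as log2 fold change over the root of the F statistic. Permutation tests, two-sided on log2(CPM + 0.5), were exact for 5 against 5 and used 100000 resamples otherwise. Alternatives were DESeq2 1.42.0, RLE normalization, filters of 1 and 100 counts, robust dispersion, the replicate number as a block, each androstenone group alone, 1 fit of all samples and leaving out each sample. Total counts alone, the ratio of KRT8 to KRT18, pooled ratios without each sample and separation on other scalings were added after the data were seen. The fits were tested on simulated data. Python 3.11.15, scipy 1.17.1 and matplotlib 3.10.9 were used. Named genes were the 5 members, keratins with at least 1 CPM in 5 samples or called, listed partners past both thresholds (1 of them is not reported here), and the 3 genes most like each member. KRT5, SPP1, CLDN4, the Leydig cell markers and the markers of the closing section were named after their values were seen. The members and lists were chosen with earlier results of these data known. The p-values measure the spread between samples of 1 boar each.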

Additional observations from a re-analysis of the deposited data

How the results depend on the processing

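Of 910 alternative values for 43 results, 886 kept the direction and side of the threshold, stayed within 1.5 times a count or, for values without a test, moved by less than the spread between replicates. This rule is lenient. The fall of KRT8 in liver from 1.99 to 0.51 without liver high replicate 3 counted as kept, as did counts of 0 that stayed at 0. Called IDs higher in liver, 6143, became 3577 with total counts alone and 4031 at a log2 fold change of at least 1.5. Total counts alone gave 11 keratins higher in testis in place of 7. IDs that did not overlap and were higher in liver, 1535 on TMM within each tissue, became 2919 on TMM over both tissues. IDs called in testis, 0 in each direction, became 18 higher and 34 lower in high androstenone with DESeq2, and 0 to 2 higher when 1 sample was left out (2 without testis low replicate 5). The share of tissue calls higher in testis was 57.4% with TMM and 76.0% with total counts. With 1 sample left out, the fitted tissue log2 fold change of KRT82 was 4.13 to 4.85. The high over low value was -0.024 to 0.36 for KRT18 in testis, -0.17 to 0.39 for KRT19 in liver, where it turned negative without liver low replicates 2 or 5 or liver high replicates 1 or 5, and -0.56 to 3.31 for KRT78 in liver. With the replicate number as a block, the tissue log2 fold changes were -5.36 for KRT8, -8.82 for KRT18, -2.04 for KRT19, -5.33 for KRT78 and 5.37 for KRT82, and no call on a member changed. Equal numbers were not taken as pairs, since the labels do not say that they mark 1 boar. The deviations of same-numbered testes and livers correlated at -0.035 to 0.156 in the low group (mean 0.073, against -0.019 for other numbers) and at -0.043 to 0.412 in the high group (mean 0.182, against -0.049), and 2 of 5 and 3 of 5 pairs were over 0.1. In each group 2 of 5 testes correlated best with the liver of their own number. Whether the numbers mark the same animals thus cannot be told from these values. KRT78 in testis and KRT82 in liver had too few counts for high against low, and KRT82 had no tissue value in the high androstenone samples alone.

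At these depths, KRT18 in testis, KRT78 in most livers and KRT82 in most testes are near or below the floor of 3 counts, and differences there were not detectable. Dixon's ratio on log2 values marked no sample in the 10 groups with a median of at least 1 CPM.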

Other observations

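Markers of other epithelia were read in the testes beside the keratins. TRIM29, a protein of stratified and glandular epithelia, stood at 30.9 to 87.4 CPM in testis low and 52.3 to 102 CPM in testis high, with no read in any liver. IVL, involucrin of the cornified envelope, stood at 1.04 to 7.32 CPM in testis low and 2.79 to 4.04 CPM in testis high, also with no read in liver. The stratified epithelium list did not lie on the testis side as a whole. Of its 7 IDs tested, IVL, TRIM29, KRT10 and KRT4 were called higher in testis and both IDs of S100A2, a calcium-binding protein, higher in liver, and SFN had 0 to 2 reads in each testis. Of the 7 bile duct markers tested, EPCAM, ANXA4 and SOX9 were called higher in testis and CFTR, CLDN4, SPP1 and KRT19 higher in liver. Over all IDs, 43.5% were called higher in testis and 32.2% higher in liver. EPCAM, an epithelial adhesion molecule, was 16.0 to 96.5 CPM in testis low and 27.7 to 59.5 CPM in testis high, against at most 4.62 CPM in liver. CFTR, a chloride channel of duct cells, had no read in testis low and 4 in testis high. All of these markers were named after their values were seen.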
